A study of Homo sapiens with 6 samples.

Results

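These 48 genes, except the centriole gene CENPJ, encode proteins that build the centromere and kinetochore and watch over their attachment to the spindle. They were taken by gene name from the deposited count table, which holds 58735 genes, and all 48 were among the 14975 genes that passed the filter on low counts. MDA-MB-231 is a human triple-negative breast cancer line of mesenchymal character. The series compares 3 libraries labelled Control with 3 labelled PM2.5, the fine fraction of airborne particulate matter. RNA was extracted 48 h into exposure, and neither the dose nor the source of the particles is given in the sources used here. Both groups are this 1 cell line with no genetic change named, and the series' text calls the 3 libraries of each group biological replicates. The libraries held 31846136 to 34691009 counts, so that 3 counts, the limit that a count of 0 allows, lie at 0.0865 to 0.0942 counts per 1000000 (CPM). The least counted of the 48 genes had 300 counts over the 6 libraries.

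A centromere is marked by nucleosomes that carry the histone H3 variant CENP-A in place of H3. On this chromatin sits the constitutive centromere-associated network (CCAN), and on the CCAN the KMN network, whose NDC80 complex grips the ends of spindle microtubules. Kinetochores that lack such a grip start the spindle checkpoint, which holds the cell in mitosis, while Aurora B in the chromosomal passenger complex releases faulty attachments. Many of these genes are transcribed in waves, from S phase to mitosis, so that their mRNA is abundant in dividing cells.

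Most of the genes were higher in the PM2.5 libraries, by up to 7.67-fold, but the members of a single complex often differed widely. HJURP, NUF2, CENPF, TTK and CENPA led the rise. CENPB and MAD1L1 fell, and the 3 MIS12 complex genes MIS12, DSN1 and NSL1 did not pass the test. At an adjusted p under 0.05 (edgeR's quasi-likelihood test, adjusted by Benjamini-Hochberg over all genes tested), 40 of the 48 (83.3%) were higher and 2 (4.17%) lower. Of all genes tested, 16.1% were called higher and 15.8% lower, 31.9% in either direction. The median log2 change was 1.29 over the 48 genes and -0.01 over all genes tested. At least 2-fold higher and called were 30 of the 48 (62.5%), against 4.91% of all genes tested, and 11 were at least 4-fold higher. In 41 of the 48 (85.4%) every PM2.5 library lay above every Control library, which was so for 21.4% of all genes tested. The reverse order held for CENPB, MAD1L1 and NSL1, beside 22.9% of all genes tested. The summed level of the 48 genes was 904, 894 and 845 CPM in Control replicates 1 to 3 and 1524, 1533 and 1482 CPM in PM2.5 replicates 1 to 3. In bulk RNA, a larger share of cells in late cell cycle and more of these transcripts per cell cannot be told apart.

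**Figure D1:**
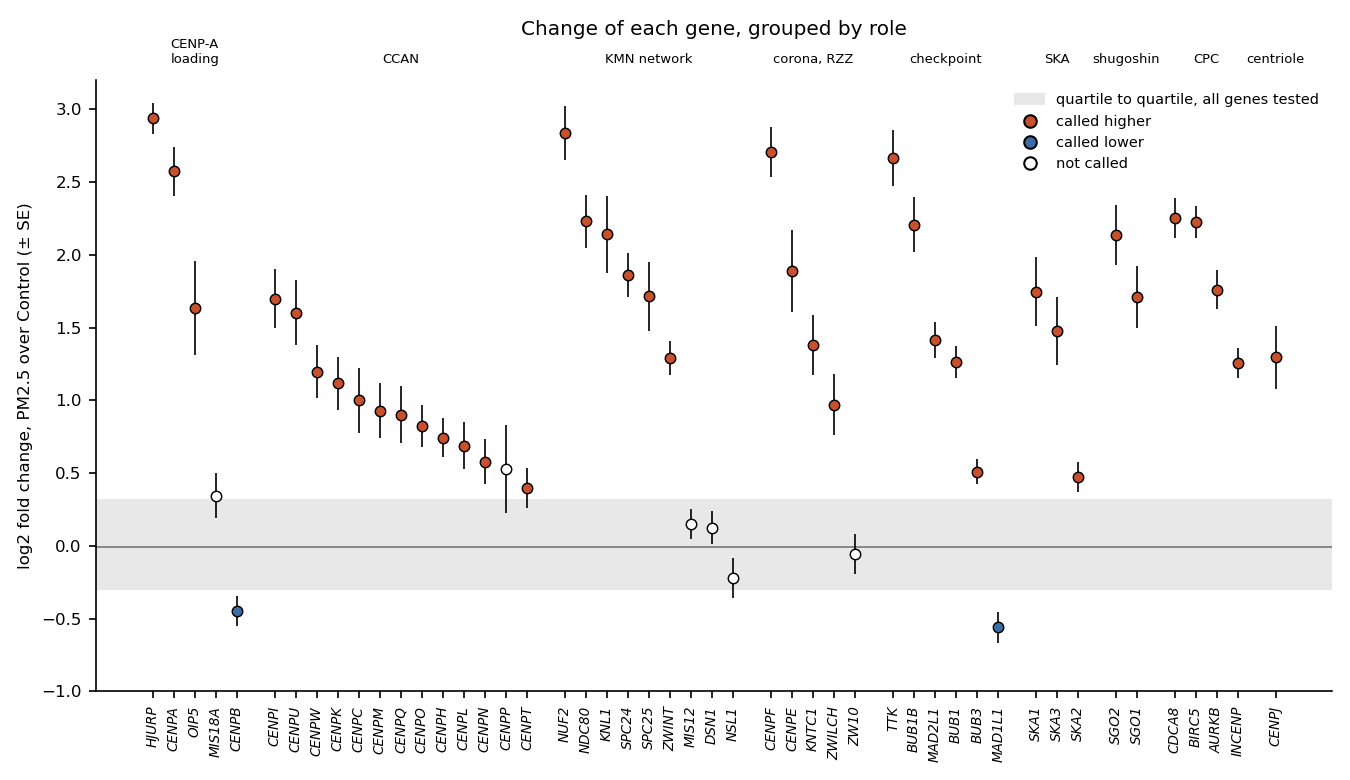
Log2 change (PM2.5 minus Control) of each of the 48 genes with its standard error, n = 3 libraries per group, grouped by role; red points were called higher, blue lower and white not called, and the grey band runs from the lower to the upper quartile of all genes tested (-0.29 to 0.32). The points run from -0.56 for MAD1L1 to 2.94 for HJURP, with 44 of 48 above 0.

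Some facts of the whole series stand beside these counts. HMOX1, heme oxygenase 1, which oxidative stress induces, fell from 812 ± 58.2 to 51.3 ± 6.0 CPM (SD, n = 3), and CYP1A1, the cytochrome P450 that aryl hydrocarbons induce, fell from 6.28 ± 1.73 to 2.73 ± 0.65 CPM. Both genes are known to be raised by particulate matter, and both falls run opposite to that. The labels were used as given, every direction stated here rests on them, and with exchanged labels each would turn. The identity markers VIM, CD44 and AXL were abundant in both groups (VIM 2289 and 2681 CPM, Control first), and none of the 3 was called. Of 5 luminal markers ERBB2 (64.9 and 43.1 CPM) and GATA3 (5.85 and 4.03 CPM) passed the filter and both were called lower, and ESR1 had 0 counts in all libraries. The summed luminal level was 67.0 to 78.0 CPM in Control and 41.6 to 53.0 CPM in PM2.5 libraries. Of 4 leukocyte markers only CD14 passed the filter, and it rose (summed level 1.14 to 2.29 and 2.53 to 3.73 CPM), with PTPRC and CD3E at 0 counts. Of 3 endothelial markers 2 were tested and PECAM1 rose (38.9 to 50.8 and 53.5 to 58.4 CPM summed), while of 3 fibroblast markers 2 were tested and neither was called (24.7 to 31.0 and 26.7 to 30.6 CPM). The calls of GATA3, CD14 and PECAM1 were lost in 8, 5 and 4 of 13 alternatives. The part of these markers in the results was not tested.

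Many promoters of these genes hold short sequence elements, which the rule that chose the genes did not use. The cell cycle homology region (CHR), a short element that MuvB complexes bind at late cell cycle genes, was searched as TTTGAA or TTCGAA, and the CCAAT box, bound by NF-Y, as CCAAT, both on either strand. The windows were RefSeq promoters of GRCh38.p14, from 250 bases before to 50 after each start, and 38 of the 48 genes matched, with 44 promoters. A CHR match was present in 22 of the 44 promoters (50%, exact Clopper-Pearson 95% interval 34.6 to 65.4%) and in 16.4% of all 35116 promoters of the same length, or 11.9% of those of genes tested. A CCAAT box was present in 29 of the 44 (65.9%, interval 50.1 to 79.5%), in 34.6% of all promoters and in 34.4% of those of genes tested. Some windows overlap or share a gene, so the intervals cover counting error only. In 1 member promoter, that of CDCA8, a CHR match overlapped a CCAAT match.

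The 5 genes of smallest p whose promoter held a CHR match are printed, with the match in capitals, 5′ to 3′ on the strand of the gene. The HJURP stretch is chr2:233854537-233854685 on the minus strand, 150 to 2 bases before the RefSeq start, and it also holds 3 CCAAT boxes. The CDCA8 stretch is chr1:37692481-37692510, the CENPF stretch chr1:214603215-214603244, the NUF2 stretch chr1:163321956-163321985 and the CENPA stretch chr2:26786026-26786055, all on the plus strand. The first base of the match lies 111 bases before the start in HJURP, 23 before in CDCA8 and 18 before in CENPA. It lies at base 41 after the start in CENPF and base 17 in NUF2.
HJURP: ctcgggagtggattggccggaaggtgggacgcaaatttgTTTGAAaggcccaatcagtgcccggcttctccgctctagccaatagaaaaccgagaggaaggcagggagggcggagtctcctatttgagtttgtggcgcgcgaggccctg
CDCA8: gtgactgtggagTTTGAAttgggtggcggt
CENPF: ccggtggcggctgcgggcagTTTGAAttag
NUF2: taggaggcggcaagTTTGAAaagtgatgac
CENPA: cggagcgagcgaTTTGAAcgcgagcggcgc
All 5 carry the form TTTGAA, and in the last 4 it sits within 50 bases of the start. Within 50 bases on either side of the start, a window chosen after the positions had been seen, a CHR match was present in 43.2% of member promoters and 5.01% of all promoters. Of the 21 genes with a CHR match, 20 were called higher and 1, ZW10, was not called, with a median log2 change of 1.64. Of the 17 genes whose promoters held no CHR match, some with a CCAAT box, 11 were called higher, 2 lower and 4 not, with a median of 0.90. A match is a description of letters, not of a bound site. MIS18A, CENPH, CENPL, CENPM, KNL1, KNTC1, BUB3, TTK, BIRC5 and CENPJ had no entry in the promoter table.

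**Figure D2:**
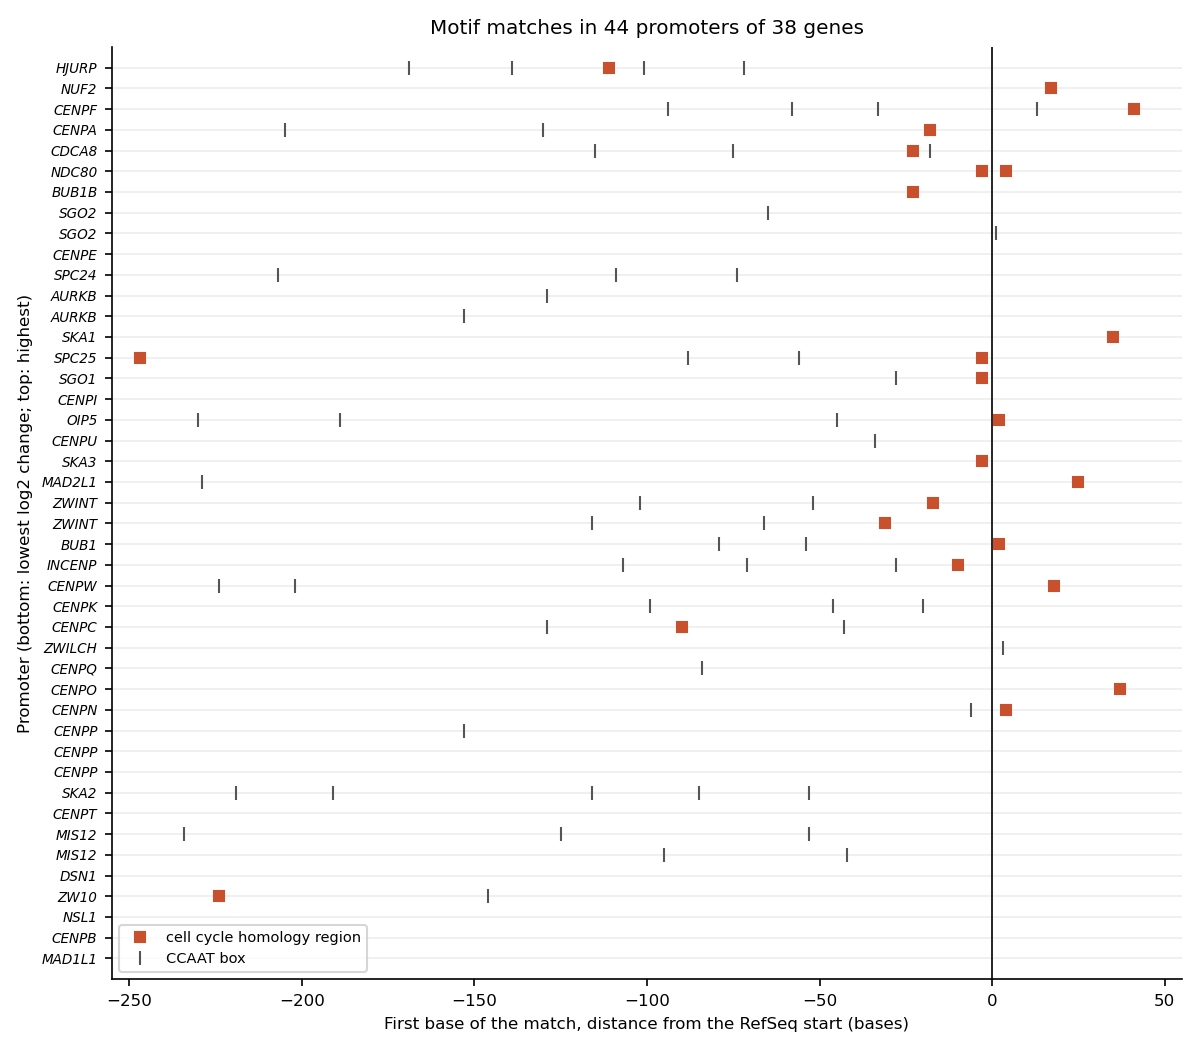
Position of CHR and CCAAT matches, in bases from the RefSeq start, in the 44 member promoters, 1 line per promoter, ordered by log2 change with the largest at the top; squares are CHR matches and ticks CCAAT boxes. The CHR matches gather near the start, with 19 of 22 promoters holding one within 50 bases of it, and the CCAAT boxes lie mostly before the start.

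CENPA, CENPB and the genes that help to place CENP-A, taken here as 1 group, moved unequally. HJURP, the chaperone that loads CENP-A (chr2:233833416-233854566, minus strand), stood at 16.1, 17.3 and 14.1 CPM in Control replicates 1 to 3 and at 119, 123 and 121 CPM in PM2.5 replicates 1 to 3. It rose by 2.94 ± 0.11 on the log2 scale (SE, adjusted p = 2.09e-11), the third smallest p of all genes tested. CENPA itself read 2.64, 2.16 and 2.63 CPM in Control and 16.1, 13.4 and 14.9 CPM in PM2.5 libraries, a log2 change of 2.57 ± 0.17 (adjusted p = 1.11e-08). In both genes the groups are far apart compared with the spread within them.

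OIP5 and MIS18A belong to the Mis18 complex, which licenses the centromere for new CENP-A, and CENPB binds the CENP-B box of alpha-satellite DNA. OIP5 rose 3.11-fold (log2 change 1.64 ± 0.32, adjusted p = 0.00117) from a low level. MIS18A had 10.3, 9.84 and 8.65 CPM in Control and 13.3, 13.2 and 10.1 CPM in PM2.5 libraries, a log2 change of 0.35 ± 0.15 (adjusted p = 0.0985). The groups overlapped through PM2.5 replicate 3, without which MIS18A was called (0.47, adjusted p = 0.0283). CENPB went the other way, at 131, 117 and 144 CPM in Control and 99.7, 85.6 and 102 CPM in PM2.5 libraries, which do not overlap. It was 1.36-fold lower (log2 change -0.45 ± 0.10, adjusted p = 0.00366). Of this group of 5 genes, 3 were called higher, 1 lower and 1 not. OIP5 shares 38% of its exonic bases with exons of the antisense gene OIP5-AS1 (54.7 and 66.7 CPM, not called), and CENPA shares 6.96% with SLC35F6 (25.5 and 20.2 CPM, called lower, a call lost in 7 of 13 alternatives). The strand setting of the counting is not given in the sources used here, so reads shared by OIP5 and OIP5-AS1 cannot be told apart. SLC35F6 lies on the same strand as CENPA, so no strand setting would separate the reads these genes share.

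**Figure D3:**
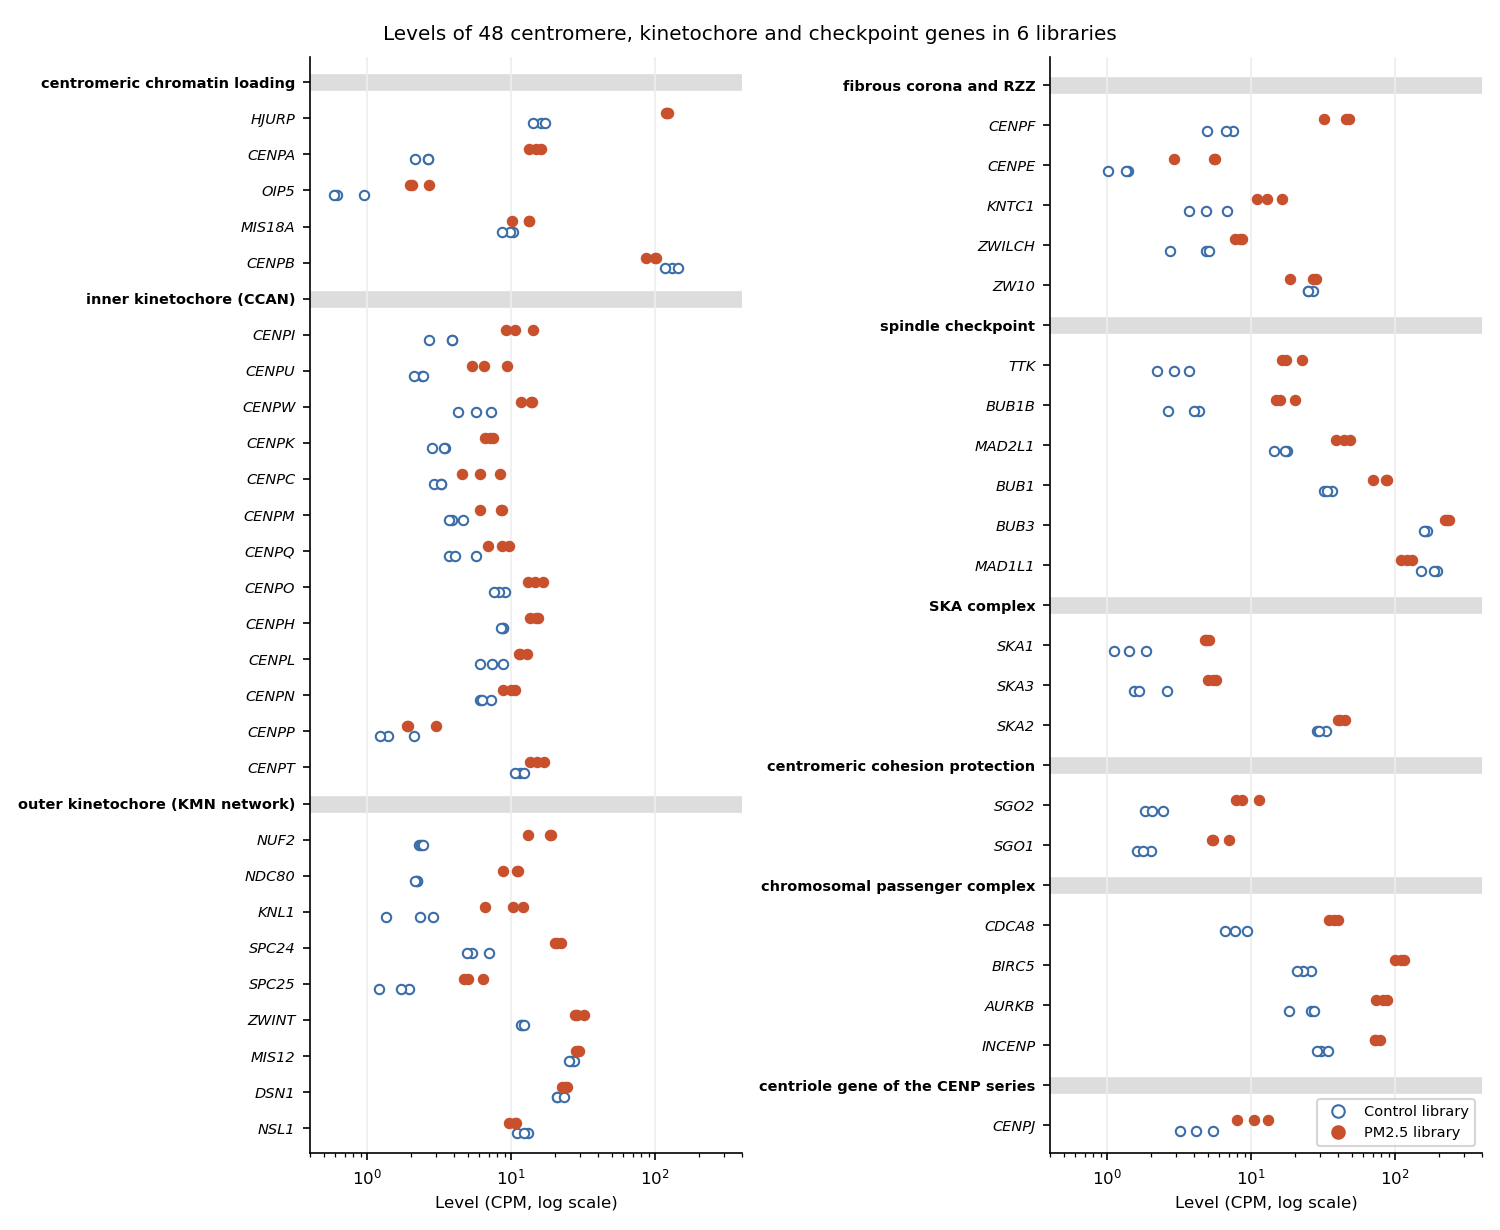
CPM of the 48 genes in each of the 6 libraries on a log axis, 3 Control and 3 PM2.5 points per gene, ordered by role. HJURP moves from 15.8 to 121 CPM on average, while CENPB and MAD1L1 are the only called genes whose PM2.5 points lie below the Control points.

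All 13 CCAN genes had a positive log2 change and 12 were called higher, with a median of 0.90 and a largest fold of 3.25. The CCAN is the inner kinetochore scaffold that reads the CENP-A nucleosome. CENPI, of the CENP-H/I/K/M group, had 2.68, 3.89 and 3.86 CPM in Control and 10.6, 14.1 and 9.24 CPM in PM2.5 libraries (1.70 ± 0.20 on the log2 scale, adjusted p = 1.07e-05). CENPU, which recruits Polo-like kinase 1, had 2.38, 2.13 and 2.46 CPM in Control and 6.48, 9.40 and 5.33 CPM in PM2.5 libraries (1.60 ± 0.23, adjusted p = 6.07e-05). In both, PM2.5 replicate 2 was the highest and replicate 3 the lowest of its group, yet every PM2.5 library was above every Control library.

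The other CCAN genes among the 48 rose less. The partners of CENPI rose 2.17-fold (CENPK), 1.91-fold (CENPM) and 1.68-fold (CENPH). CENPC, the protein that links CENP-A nucleosomes to the MIS12 complex, rose 2.0-fold. CENPL and CENPN, which form a pair that contacts the CENP-A nucleosome, rose 1.61-fold and 1.49-fold, and CENPQ and CENPO, of the same subcomplex as CENPU, rose 1.87-fold and 1.77-fold. Among the histone-fold genes, CENPW rose 2.29-fold and its direct partner CENPT 1.32-fold, the smallest rise among the called genes. The CENPT call (adjusted p = 0.0362) was lost with no filter on low counts (0.0582) and without Control replicate 1 (0.0932), Control replicate 2 (0.138), PM2.5 replicate 1 (0.0969) or PM2.5 replicate 3 (0.111), and with a replicate block (0.0521). CENPP was not called, at 1.40, 2.10 and 1.23 CPM in Control and 1.93, 3.01 and 1.89 CPM in PM2.5 libraries, which overlap (0.53 ± 0.30, adjusted p = 0.197). CENPP shares 42.7% of its exonic bases with other genes, CENPO 31.4%, CENPN 22.8%, CENPT 19.6% and CENPU 11.7%, and their counts are uncertain by an amount that was not measured.

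Within the KMN network the split ran between complexes. All 4 genes of the NDC80 complex rose, as did KNL1, the checkpoint scaffold, and ZWINT, its partner, while the 3 MIS12 complex genes among the 48 were not called. NUF2 (chr1:163266576-163355764, plus strand), the coiled-coil partner of NDC80, had 2.29, 2.37 and 2.43 CPM in Control and 18.7, 19.0 and 13 CPM in PM2.5 libraries, a log2 change of 2.84 ± 0.18 (adjusted p = 9.51e-09). SPC24, at the inner end of the complex, had 5.35, 7.0 and 4.97 CPM in Control and 20.1, 20.9 and 22 CPM in PM2.5 libraries (1.86 ± 0.15, adjusted p = 1.56e-07). NDC80, which holds the microtubule-binding head, rose 4.69-fold, SPC25 3.28-fold, KNL1 4.41-fold and ZWINT 2.45-fold. For these 6 genes no PM2.5 library overlapped a Control library.

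The MIS12 complex joins the CCAN to the NDC80 complex and KNL1. MIS12 had 26.0, 27.1 and 25 CPM in Control and 29.4, 29.2 and 28.0 CPM in PM2.5 libraries (log2 change 0.15 ± 0.10, adjusted p = 0.297). DSN1 had 20.6, 20.8 and 23.3 CPM in Control and 22.4, 23.8 and 24.3 CPM in PM2.5 libraries (0.12 ± 0.11, adjusted p = 0.437). NSL1 had 13, 11 and 12.3 CPM in Control and 9.70, 10.6 and 10.9 CPM in PM2.5 libraries (-0.22 ± 0.14, adjusted p = 0.245). The PM2.5 libraries lay above Control for MIS12, overlapped them for DSN1 and lay below them for NSL1, none past the threshold. PMF1, the fourth subunit, which is not among the 48 genes, was called lower, from 5.11 ± 0.22 to 3.42 ± 0.71 CPM (-0.58 ± 0.20, adjusted p = 0.0388), in the analysis as described but not in 6 of 13 alternatives, among them those without Control replicate 1 or 2 or PM2.5 replicate 1 or 2. Per length, in counts per kilobase of gene and 1000000 counts (RPKM), mean levels in Control libraries were 8.25 for MIS12, 7.88 for DSN1 and 2.96 for NSL1, but 0.609 for NDC80, 0.703 for NUF2, 0.885 for SPC25 and 2.03 for SPC24. In PM2.5 libraries the same means were 9.15, 8.59 and 2.54 RPKM for the MIS12 complex genes and 2.86, 5.03, 2.91 and 7.39 RPKM for the NDC80 complex genes in that order. The level of NUF2 divided by that of NDC80 went from 1.16 ± 0.06 to 1.75 ± 0.14 (SD, n = 3), with no overlap, whereas SPC25 divided by SPC24 was 0.455 ± 0.165 and 0.395 ± 0.080, which overlap.

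**Figure D4:**
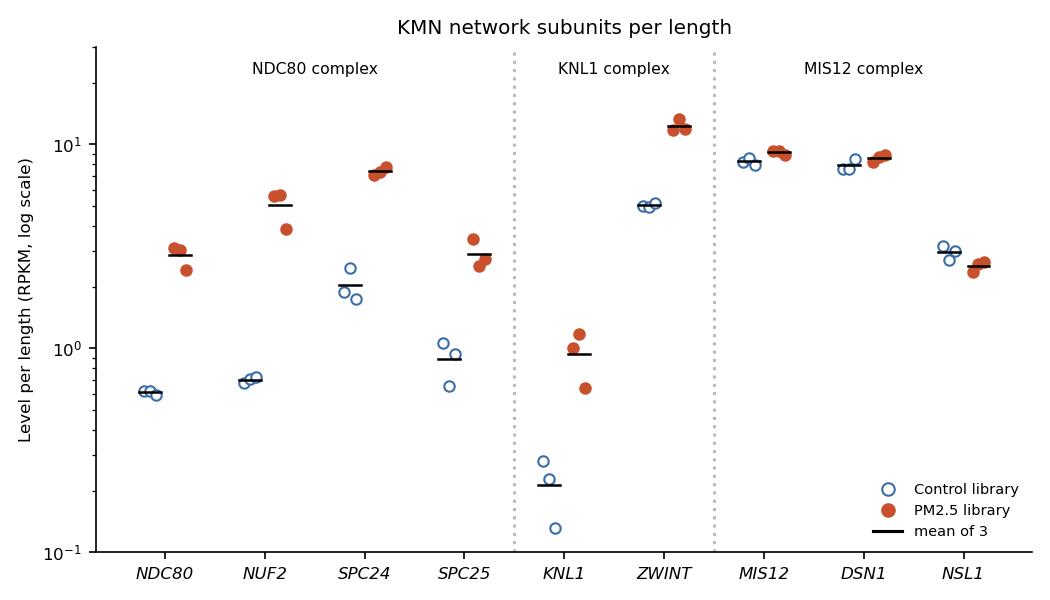
RPKM of the 9 KMN network genes in each library on a log axis, 3 Control and 3 PM2.5 points per gene. The MIS12 complex genes stay near their Control level (MIS12 8.25 to 9.15 RPKM on average) while the NDC80 complex genes, KNL1 and ZWINT shift upwards.

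The fibrous corona is the outermost layer of an unattached kinetochore, and the RZZ complex of ZW10, ZWILCH and KNTC1 forms part of it. CENPF, a large corona protein, had 4.96, 7.43 and 6.73 CPM in Control and 45.6, 47.8 and 31.9 CPM in PM2.5 libraries (2.71 ± 0.17 on the log2 scale, adjusted p = 8.06e-09). CENPE, a plus-end-directed kinesin, had 1.40, 1.02 and 1.35 CPM in Control and 5.47, 5.61 and 2.91 CPM in PM2.5 libraries (1.89 ± 0.28, adjusted p = 1.02e-04). Both had their lowest PM2.5 value in replicate 3, though still above all Control libraries. The RZZ genes separated from each other. KNTC1, the gene for ROD, rose 2.61-fold and ZWILCH 1.96-fold, but ZW10, which also acts in membrane traffic, had 24.9, 26.9 and 24.9 CPM in Control and 26.7, 28.3 and 18.7 CPM in PM2.5 libraries (-0.06 ± 0.14, adjusted p = 0.791). The sign for ZW10 rests on PM2.5 replicate 3, and without it the log2 change was 0.11 (adjusted p = 0.524). The RPKM of KNTC1 divided by that of ZW10 went from 0.053 ± 0.017 to 0.145 ± 0.015, with no overlap between groups. ZWILCH shares 10.9% of its exonic bases with LCTL and RPL4, a ribosomal protein gene at 1140 CPM in Control libraries against 4.21 CPM for ZWILCH, so its counts are uncertain.

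Among the 6 checkpoint genes, 5 rose and MAD1L1 fell. TTK, the kinase MPS1 that starts checkpoint signalling, had 2.22, 3.67 and 2.92 CPM in Control and 17.4, 22.6 and 16.2 CPM in PM2.5 libraries (2.67 ± 0.19, adjusted p = 3.97e-08). BUB1, a kinase and scaffold of the checkpoint, had 32.1, 36.3 and 33.3 CPM in Control and 86.3, 88.3 and 69.7 CPM in PM2.5 libraries (1.26 ± 0.11, adjusted p = 3.26e-07). BUB1B, the gene for BUBR1, rose 4.62-fold and MAD2L1, the gene for MAD2, 2.67-fold. BUB3, the adaptor of both BUB1 and BUBR1, was abundant in Control libraries and rose 1.42-fold (0.51 ± 0.09, adjusted p = 3.81e-04). BUB1B shares 10.2% of its exonic bases with the readthrough gene BUB1B-PAK6.

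MAD1L1 encodes MAD1, the kinetochore platform on which MAD2 changes shape. MAD1L1 (chr7:1815793-2233243, minus strand) had 194, 186 and 151 CPM in Control and 121, 109 and 130 CPM in PM2.5 libraries, which do not overlap. It was 1.47-fold lower (-0.56 ± 0.11, adjusted p = 9.33e-04), in the direction opposite to its partner. The RPKM of MAD2L1 divided by that of MAD1L1 was 0.115, 0.116 and 0.119 in Control and 0.461, 0.558 and 0.372 in PM2.5 libraries. In the same way BUB1B divided by BUB3 went from 0.042 ± 0.011 to 0.136 ± 0.017 and BUB1 divided by BUB3 from 0.290 ± 0.014 to 0.488 ± 0.048. For each of these 3 ratios every PM2.5 library was above every Control library, a description with no test.

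The SKA complex couples kinetochores to shrinking microtubules, and its 3 genes all rose, unequally. SKA1 had 1.86, 1.42 and 1.11 CPM in Control and 5.09, 4.82 and 4.81 CPM in PM2.5 libraries (1.75 ± 0.24, adjusted p = 3.92e-05). SKA3 had 1.53, 2.59 and 1.67 CPM in Control and 5.04, 5.73 and 5.39 CPM in PM2.5 libraries (1.48 ± 0.23, adjusted p = 1.60e-04). SKA2 was the more abundant partner in both groups and rose 1.39-fold. Its RPKM was 20.4 ± 5.48 times that of SKA1 in Control and 8.06 ± 0.60 times in PM2.5 libraries, with no overlap.

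The shugoshins shield centromeric cohesin until anaphase, and both genes rose. SGO2 had 1.83, 2.04 and 2.43 CPM in Control and 7.83, 11.3 and 8.57 CPM in PM2.5 libraries (2.13 ± 0.20, adjusted p = 9.96e-07). SGO1 had 2.02, 1.60 and 1.78 CPM in Control and 5.30, 7.05 and 5.39 CPM in PM2.5 libraries (1.71 ± 0.22, adjusted p = 1.98e-05). In both genes every PM2.5 library lay above every Control library. SGO1 shares 17.7% of its exonic bases with its antisense gene SGO1-AS1.

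All 4 genes of the chromosomal passenger complex rose, with a median log2 change of 1.99. BIRC5, the gene for survivin, which brings the complex to the centromere, had 25.8, 23.0 and 20.6 CPM in Control and 110, 99.8 and 115 CPM in PM2.5 libraries (2.22 ± 0.11, adjusted p = 4.95e-10). CDCA8, the gene for borealin, had 7.67, 9.37 and 6.52 CPM in Control and 37.3, 34.8 and 40.3 CPM in PM2.5 libraries (2.25 ± 0.14, adjusted p = 6.02e-09). The kinase gene AURKB rose 3.39-fold and the scaffold gene INCENP 2.39-fold, the smallest of the 4. Relative to INCENP, per length, BIRC5 went from 0.875 ± 0.110 to 1.71 ± 0.08, CDCA8 from 0.455 ± 0.042 to 0.912 ± 0.037 and AURKB from 1.52 ± 0.23 to 2.17 ± 0.13. Here PM2.5 replicate 3 was the highest of its group for AURKB, BIRC5, CDCA8 and INCENP, unlike its low place for CENPE and CENPF. CENPJ carries a CENP symbol but encodes the centriole protein CPAP. It had 5.45, 3.21 and 4.12 CPM in Control and 10.4, 13.1 and 7.92 CPM in PM2.5 libraries (1.30 ± 0.22, adjusted p = 2.89e-04).

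In order of level per length, the genes changed places. In Control libraries CENPB was highest among the 48 with a mean of 46.0 RPKM and CENPE lowest with 0.133 RPKM. In PM2.5 libraries AURKB was highest with 36.1 ± 3.2 RPKM, ahead of CENPB with 33.7 ± 3.07 and HJURP with 31.8 ± 0.53, neighbours whose means differ by less than the larger SD. HJURP moved from place 15 to place 3, and CENPP was then lowest with 0.233 RPKM. Pseudogene copies of the 48 genes, 9 by symbol, held at most 3 counts in any library.

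Genes that work with the 48 but are not among them rose less uniformly. Of 19 kinetochore partners, 10 were called higher, 3 lower and 6 not, with a median log2 change of 0.33 (52.6% higher and 15.8% lower). KIF2C, the microtubule depolymerase at centromeres, went from 15.4 ± 2.75 to 95.9 ± 2.43 CPM (2.64 ± 0.12, adjusted p = 3.05e-10), and the kinase gene PLK1 from 11.2 ± 2.71 to 60.6 ± 6.57 CPM. SPAG5 (1.94) and CDC20 (1.86), the checkpoint's target, also rose on the log2 scale, while BOD1 (-0.38) and MAD2L1BP (-0.33), which helps take the checkpoint complex apart, were called lower. The call of PMF1 was lost in 6 of 13 alternatives (adjusted p = 0.0180 to 0.151 over all 13) and that of MAD2L1BP in 9 (0.0151 to 0.225), while BOD1 was called in all 13. RSF1 (0.04) and PPP2R5A (0.09) were not called, nor were the CCAN genes CENPX (0.21), ITGB3BP (-0.33) and CENPS (-0.85). Of 15 genes of cohesin and its regulators (cohesin genes for short), 8 were higher (53.3%), 1 lower (6.67%) and 6 not. With 1 library left out, 5 to 10 were higher. The rise was led by CDCA5, the gene for sororin (1.93), PTTG1, for securin (1.77), ESPL1, for separase (1.29), and RAD21 (0.76). The loader gene MAU2 fell (-0.61), and the ring gene SMC1A (0.00) and STAG1 (0.06) were not called.

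Of 14 regulators of mitotic gene transcription, 3 were higher, 1 lower and 10 not called. MYBL2, which joins MuvB at late cell cycle promoters, went from 6.02 ± 1.14 to 23.5 ± 2.49 CPM (1.96 ± 0.16, adjusted p = 1.13e-07), and FOXM1 from 16.6 ± 0.67 to 53.2 ± 9.22 CPM (1.68 ± 0.13, adjusted p = 5.28e-08). E2F1 rose by 0.66 on the log2 scale. CDKN1A, the gene for the cyclin-dependent kinase inhibitor p21, fell from 1291 ± 81.1 to 765 ± 64.3 CPM (-0.76 ± 0.10, adjusted p = 4.46e-05). RBL2 (0.02) and RBBP4 (0.04) were not called. The shares called, 21.4% higher and 7.14% lower, stand beside 16.1% and 15.8% of all genes tested, so the higher share is near the background. The part of MYBL2, FOXM1, E2F1 and CDKN1A in the result was not tested.

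Several of the 48 genes start back to back with a neighbour on the other strand. Of 12 genes whose start lies within 1000 bases of a member start and which run away from it, 10 were tested, and 5 were called higher, 2 lower and 3 not. These shares, 50% higher and 20% lower of only 10 genes, stand beside 16.1% and 15.8% of all genes tested. PRR11, whose start lies 230 bases from that of SKA2, rose by 1.71 ± 0.11 (25.2 to 82.4 CPM), more than SKA2 itself (0.47). CDC25B, which starts 82 bases from CENPB and activates cyclin-dependent kinase 1, rose by 1.05 ± 0.11 (151 to 313 CPM) while CENPB fell. NUSAP1, 73 bases from OIP5, rose by 1.75 ± 0.25, and METTL4, 2 bases from NDC80, by 0.88 ± 0.19. MRPL57, a mitochondrial ribosomal gene 43 bases from SKA3, fell by 0.90 (29.2 to 15.7 CPM) while SKA3 rose, and TATDN3, 46 bases from NSL1, fell by 0.72. C1orf109 beside CDCA8 (0.07), PPWD1 beside CENPK (0.12) and MUT beside CENPQ (-0.04) were not called, although the 3 members were. Such pairs thus moved together in some cases (OIP5 and NUSAP1) and apart in others (SKA3 and MRPL57, CENPB and CDC25B).

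**Figure D5:**
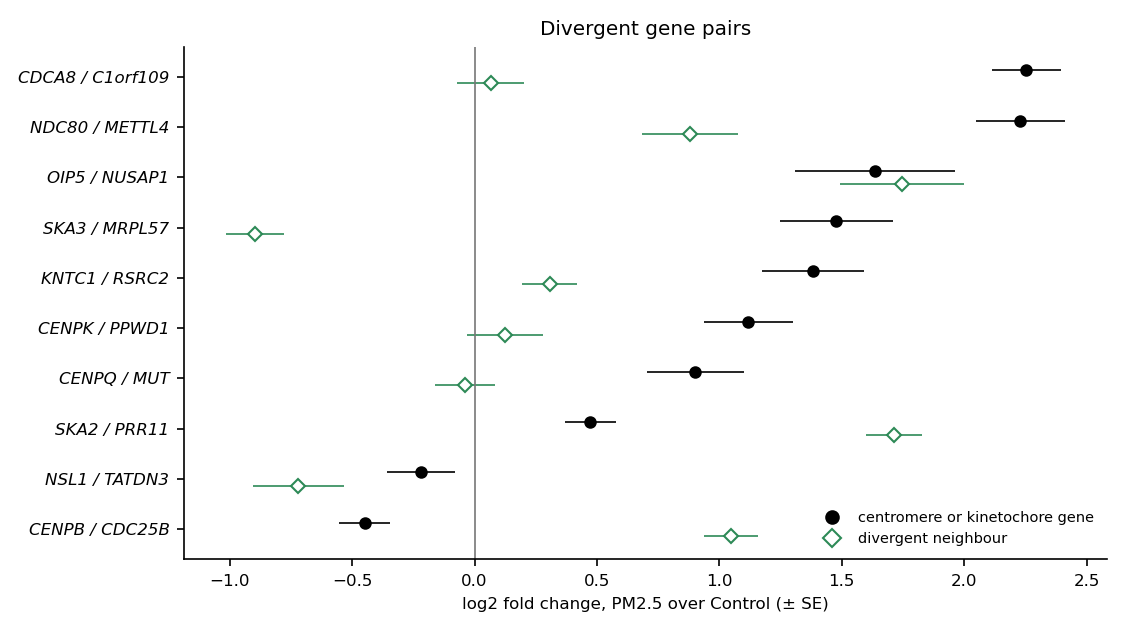
Log2 change (PM2.5 minus Control) of a member gene and of the neighbour that starts back to back with it, with standard errors, n = 3 libraries per group. PRR11 and CDC25B lie above their partners SKA2 and CENPB, and MRPL57 lies at -0.90 beside SKA3 at 1.48.

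Of 54 genes whose span overlaps that of a member, 18 were tested, and 3 were called higher, 2 lower and 13 not, a median log2 change of -0.06. The shares, 16.7% higher and 11.1% lower, are near the 16.1% and 15.8% of all genes tested. ADCY3, which overlaps CENPO, rose by 0.47, a call lost without Control replicate 2, PM2.5 replicate 1 or PM2.5 replicate 3 (adjusted p = 0.104, 0.0525 and 0.0599), while THAP11, which overlaps CENPT, fell by 0.47.

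The spread within groups was uneven over the 48 genes. PM2.5 replicate 3 was the lowest of its group for 24 of the 48 genes, and PM2.5 replicate 2 the highest for 23 of the 40 genes called higher. Control replicate 3 was the lowest Control library for 22 of the 48, and it stood apart from the other Control libraries on the second principal component of all genes (13.2% of the variance, against 68.6% for the first). With any 1 of the 6 libraries left out, 39 or 40 of the 48 genes were called higher and 2 lower.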

How the data were processed

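Total RNA of MDA-MB-231 cells was turned into libraries with a NEBNext Ultra kit and sequenced on a NovaSeq, per the labels' protocols. The authors deposited whole-number counts per gene, with no normalization, for 3 Control and 3 PM2.5 libraries, per the file headers. The submitters' processing notes name GRCh38. The strand setting, the aligner and the counter are stated nowhere in the sources used here. IDs and coordinates of 58735 genes, the whole table, were found in GENCODE 29.

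From these counts, edgeR 4.0.16 in R 4.3.3 tested PM2.5 against Control over all genes that passed filterByExpr (minimum count 10, minimum total 15), with TMM normalization, the quasi-likelihood test and Benjamini-Hochberg adjustment; calls are at an adjusted p under 0.05. The standard error of a log2 change was taken as its size over the root of F. CPM and RPKM use TMM library sizes, and RPKM the deposited gene length. Alternatives were RLE size factors, library totals alone, DESeq2 1.42.0, limma-voom 3.58.1, other filters, each library left out in turn and a replicate block. The scripts were tested on simulated counts. A CHR or CCAAT match was found by exact letters in RefSeq promoters.

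The 48 genes and the other lists were chosen with earlier results of these data known, so counts over them are descriptions. Values are given for every library for the 2 members of smallest p in each role group and for each member called lower or not called; other members are given by fold. Of other lists, up to 4 called genes of smallest p in each direction and up to 2 not called genes of largest p are named. The kinetochore partners CENPX, ITGB3BP and CENPS are named as well, as CCAN genes. Back-to-back neighbours start within 1000 bases. Some genes of these lists are not reported here by name.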

Additional observations from a re-analysis of the deposited data

How the results depend on the processing

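Over all 13 alternatives, 39 or 40 of the 48 genes were called higher and 2 lower, and of 624 values of single genes 616 kept their direction and side of the threshold. The exceptions were CENPT, which lost its call in 6, MIS18A, which gained one without PM2.5 replicate 3, and ZW10, whose log2 change turned to 0.105 there (-0.169 to 0.105 with 1 library left out); the cause was not tested. With 1 library left out, genes called lower over all genes numbered 1448 (without PM2.5 replicate 1) to 2680 (without Control replicate 3), kinetochore partners called lower 1 to 3, cohesin genes higher 5 to 10, overlapping neighbours higher 1 to 3 and lower 1 to 3, and transcription regulators higher 3 to 5 and lower 1 to 2. With library totals alone, 1 kinetochore partner and 1 overlapping neighbour were called lower.

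Correlations of deviations from the group mean were 0.01, -0.05 and -0.18 for same-numbered libraries of the groups. For differently numbered libraries they ran from -0.21 to 0.20. Deviations from a mean of 3 libraries depend on each other, so these values cannot show whether libraries were paired. With the replicate block, 39 of the 48 genes were higher and 2 lower (CENPT adjusted p = 0.0521), 1951 of all genes higher and 1826 lower, 5 cohesin genes higher, 1 kinetochore partner lower and 1 overlapping neighbour lower.

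In the 250 bases before the start alone, CHR matches were in 22.7% of member and 14.3% of all promoters. The exact 95% interval of the member share, 11.5 to 37.8%, includes the share of all promoters. CCAAT boxes were in 61.4% of member promoters (interval 45.5 to 75.6%) and 32% of all promoters. Within 50 bases of the start, CHR matches were in 43.2% and 5.01%, and CCAAT boxes in 27.3% and 10.6%.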

Other observations

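PM2.5 replicate 3 differed from its group by gene length among the 48 genes, a split made after the values were seen. Of the 24 genes longer than the median of 3818 bases, it was the lowest of its group for 15, with a median deviation of -0.14 on the log2 scale from the group mean. Of the 24 shorter genes it was the lowest for 9, with a median deviation of -0.01. PM2.5 replicate 2 stood at 0.19 for the longer genes and 0.01 for the shorter ones. Control replicate 3 was the lowest of its group for 9 of the longer and 13 of the shorter genes. No test was made of this.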
